A study of Homo sapiens with 16 samples.

Results

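The genes of 10 spindle proteins and interphase microtubule binders (STMN1, MAP4, MAP1B, MAPRE1, CLASP1, CKAP5, TPX2, HMMR, TACC3 and NUSAP1) were followed in 16 RNA-seq libraries. Members were taken by symbol, and all 10 were present once among the 58735 genes of each count table. The libraries came from SUM159PT and MDA-MB-231, established human triple-negative breast cancer lines labelled as wild type in genotype. Cells of each line were transfected by lipofection with a guide RNA directed at YES1, a tyrosine kinase gene of the Src family (sgYES1), or with a non-targeting guide (sgNTS), and were collected 48 h later; the labels name no nuclease or other effector for them. There were 4 groups of 4 libraries, namely SUM159PT sgYES1, SUM159PT sgNTS, MDA-MB-231 sgYES1 and MDA-MB-231 sgNTS. The submitters call the replicates technical, so p-values measure the spread between these libraries. The series is about YES1, the fidelity of mitosis and taxanes, drugs that stabilise microtubules, but no taxane is named for these samples.

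Microtubules grow and shrink at their ends, and proteins that bind the lattice, the growing end or free tubulin set how fast they do so. At mitosis the array is rebuilt as a spindle, and spindle proteins such as TPX2, HMMR and NUSAP1 are made mostly in G2 and M phase and destroyed afterwards. TPX2 activates the kinase Aurora A (AURKA) and nucleates microtubules around chromosomes, HMMR positions the spindle through its poles, and NUSAP1 bundles microtubules near chromosomes. TACC3 and CKAP5 act together, CKAP5 (also called ch-TOG) being a microtubule polymerase and TACC3 the adaptor that, with clathrin, crosslinks spindle fibres. MAPRE1 (EB1) tracks growing ends and recruits partners there, CLASP1 rescues shrinking ends, MAP4 and MAP1B stabilise the lattice, and STMN1 (stathmin) binds free tubulin and promotes shrinkage.

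Library totals ranged from 14352042 to 20884267 counts in SUM159PT and from 17156454 to 25124164 counts in MDA-MB-231. YES1 itself was at 38.3 to 40.2 CPM (the read count relative to its library's total, with TMM scaling within each line) in SUM159PT sgYES1 libraries, against 89.4 to 97.9 CPM in sgNTS libraries. It was at 41.6 to 44.3 CPM in MDA-MB-231 sgYES1 libraries, against 107 to 113 CPM in sgNTS libraries. Of the receptor genes that define the labelled cell type, PGR was at 0 in all groups and ESR1 at group means of 0.0475 to 0.257 CPM of the library total, but ERBB2 was present at 96.1 to 107 CPM. VIM, the mesenchymal intermediate filament gene, was at 935 to 1660 CPM. Control cells of SUM159PT had more VIM than those of MDA-MB-231 (1660 against 1130 CPM). They had less of the mesenchymal-type markers CD44 (182 against 1060 CPM) and AXL (431 against 1730 CPM). The epithelial marker EPCAM was at 0 in SUM159PT sgNTS and 11.8 CPM in MDA-MB-231 sgNTS, and CDH1 was at most 0.198 CPM in any group. Of 4 leukocyte markers, the summed level stayed between 0 and 0.475 CPM over all libraries. That of 3 endothelial markers was 1.02 to 2.74 CPM in SUM159PT sgYES1, against 0.643 to 1.2 CPM in sgNTS. In MDA-MB-231 it was 1.82 to 3.9 CPM in sgYES1, against 1.02 to 2.14 CPM in sgNTS, so these ranges overlapped in each line. The summed level of 3 fibroblast markers (DCN, LUM and PDGFRA) moved with the guide. It was 7.45 to 10.6 CPM in SUM159PT sgYES1, against 2.44 to 3.56 CPM in sgNTS, where LUM was at 0. In MDA-MB-231 it was 1.27 to 1.81 CPM in sgYES1, against 0.692 to 1.07 CPM in sgNTS. By group means, PDGFRA was higher in sgYES1 in SUM159PT (4.07 against 1.77 CPM) and in MDA-MB-231 (0.371 against 0.0208 CPM). DCN was higher in SUM159PT (4.5 against 1.22 CPM) but not in MDA-MB-231 (0.00995 against 0.0106 CPM). LUM was at 0.015 CPM in SUM159PT sgYES1, and at 1.09 against 0.851 CPM in MDA-MB-231. The part of these marker levels in the results was not tested. One control library, MDA-MB-231 sgNTS replicate 4, stood apart from its group over all genes, with a chi-square per degree of freedom of 9.38 to 29.1 against the other three, which had 3.36 to 6.81 among themselves. It also had the highest CPM of its group for MAP1B, CLASP1, MAP4 and CKAP5. For TPX2 it was highest by a narrow margin (491.37 against 491.03 CPM in replicate 1), and for HMMR and TACC3 it was lowest. Without it, 9 members were still called in MDA-MB-231, 10 between the control lines and 4 for the difference between lines.

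In hg38, TPX2 (chr20:31739271-31801805) and MAPRE1 (chr20:32819893-32850405) lie on the plus strand of the same chromosome, 1018.1 kb apart. The other members lie on chromosomes 1 (STMN1), 2 (CLASP1), 3 (MAP4), 4 (TACC3), 5 (MAP1B and HMMR), 11 (CKAP5) and 15 (NUSAP1). Of the 10, 9 shared at most 2.9% of their exon bases with another gene, and NUSAP1 was the exception. In GENCODE 29, 62.2% of its exon bases are also exons of AC087721.2, a protein-coding model on the same strand, and that gene was at 0 counts in all 16 libraries. The labels do not say how reads matching both genes were assigned, so the NUSAP1 level is uncertain and may hold part of its reads.

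Promoter sequence was available in RefSeq (GRCh38.p14) for 9 members with 13 transcription starts. Bases upstream of a start and outside every exon of GENCODE 29 are printed for 4 members to show what lies before CKAP5, which fell in both lines with no difference between them called, and before STMN1, TACC3 and MAPRE1, whose responses differed between lines. Capitals mark matches on either strand to the CHR element of cell cycle genes (TTTGAA or TTCGAA), the CCAAT box (CCAAT), an E2F element (TTTCCCGC or TTTGGCGC) and the GC box (GGGCGG). No 2 kinds of motif shared letters in these runs, and the TACC3 run reaches its start. Counted back from the start, the last base of the other runs is base 48 for STMN1 (the first of 3 starts), 29 for CKAP5 and 62 for MAPRE1. Motifs nearer the start, such as 3 of the GC boxes of MAPRE1, are therefore not shown. The RefSeq start used for TACC3 lies upstream of its span in the count tables, which begins at base 1721490 of chromosome 4.
STMN1, chr1:25906467-25906669, minus strand: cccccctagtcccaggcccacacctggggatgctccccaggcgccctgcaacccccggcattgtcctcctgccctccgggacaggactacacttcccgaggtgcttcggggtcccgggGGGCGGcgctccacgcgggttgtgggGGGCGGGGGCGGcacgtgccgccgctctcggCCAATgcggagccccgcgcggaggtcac
CKAP5, chr11:46846309-46846411, minus strand: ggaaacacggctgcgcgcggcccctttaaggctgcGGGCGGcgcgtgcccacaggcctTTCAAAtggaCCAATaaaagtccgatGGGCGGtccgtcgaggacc
TACC3, chr4:1720381-1720630, plus strand: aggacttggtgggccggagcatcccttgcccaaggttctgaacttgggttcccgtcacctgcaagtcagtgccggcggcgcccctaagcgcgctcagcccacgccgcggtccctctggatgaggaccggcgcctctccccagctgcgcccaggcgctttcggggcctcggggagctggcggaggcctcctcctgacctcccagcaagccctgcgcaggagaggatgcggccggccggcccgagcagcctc
MAPRE1, chr20:32819704-32819892, plus strand: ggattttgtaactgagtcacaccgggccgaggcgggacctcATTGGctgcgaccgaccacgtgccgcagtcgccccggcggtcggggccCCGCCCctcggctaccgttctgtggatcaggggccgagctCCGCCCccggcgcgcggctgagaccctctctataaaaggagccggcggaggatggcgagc
Over whole windows of 250 bases before the start, a CHR element was found in 4 of 13 windows (one each of MAP4, MAP1B, CKAP5 and HMMR), against 14.3% of all 35116 promoter windows. CCAAT boxes were found for 6 members (STMN1, MAP4, MAPRE1, CKAP5, HMMR and NUSAP1) in 6 of 13 windows, against 32.0% of all windows. An E2F element was found for STMN1 and NUSAP1 in 3 windows, against 1.9% of all windows, and a GC box for 6 members in 8 windows, against 42.6%. Neither the TACC3 window nor the CLASP1 window held any of these motifs, and CLASP1 fell in both lines with no difference between them called. These matches are descriptions of letters and are not sites of binding.

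In control cells the members spanned a wide range of levels per length. CPM per kb of exon, scaled over all 16 libraries, put TPX2 first in both lines, at 101 ± 2.85 in SUM159PT sgNTS and 134 ± 0.929 in MDA-MB-231 sgNTS (SD, n = 4). MAPRE1 followed, at 72.6 ± 4.07 and 120.1 ± 1.43 CPM per kb in the same order of lines. In SUM159PT the order went on with MAP4, STMN1, CKAP5, TACC3, MAP1B, HMMR, CLASP1 and NUSAP1, and MAP4 (48.0 to 49.9 CPM per kb) and STMN1 (44.6 to 49.8) overlapped. In MDA-MB-231 it went on with STMN1, CKAP5, TACC3, MAP4, MAP1B, CLASP1, NUSAP1 and HMMR, and CLASP1 (6.10 to 7.53 CPM per kb) and NUSAP1 (6.11 to 6.46) overlapped. All other neighbours in these orders were apart in every library. The place of NUSAP1 is uncertain, since its level may hold only part of the reads in exons it shares with AC087721.2.

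**Figure D1:**
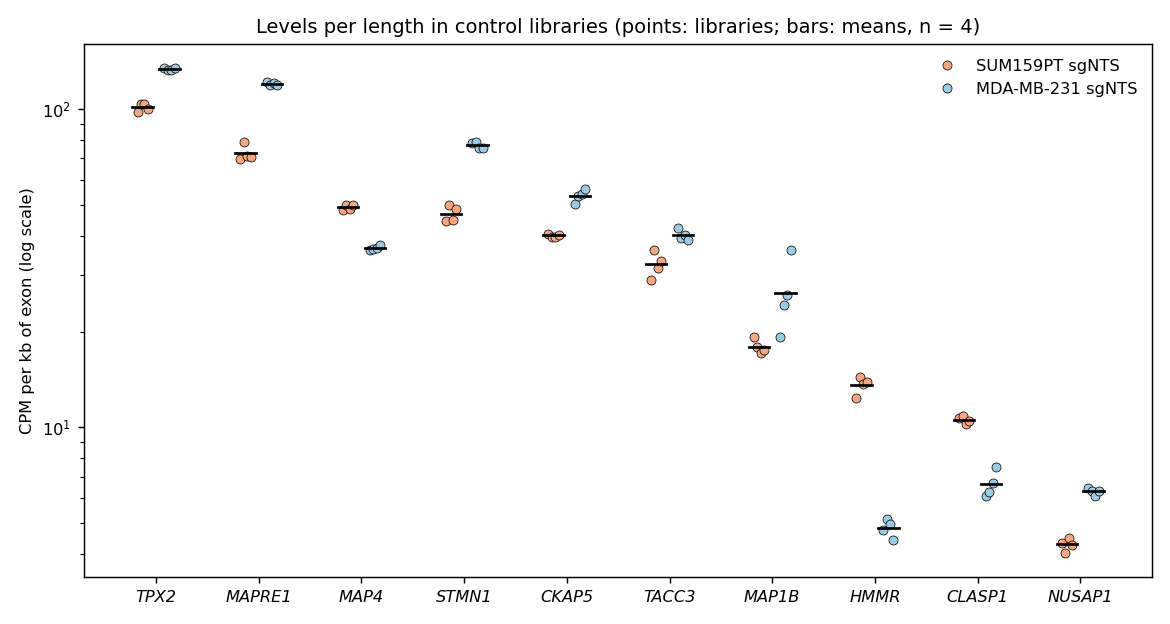
Level of each gene in the 4 sgNTS libraries of SUM159PT (orange) and of MDA-MB-231 (blue), as CPM per kb of exon on a log axis; points are libraries and bars are means. HMMR stands out with 13.6 CPM per kb in SUM159PT and 4.83 in MDA-MB-231, while MAPRE1, STMN1 and TPX2 are higher in MDA-MB-231.

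The lines themselves differed in all 10 genes. Comparing SUM159PT sgNTS with MDA-MB-231 sgNTS, 3 members were higher in SUM159PT and 7 were lower (edgeR quasi-likelihood test, adjusted p under 0.05), where 82.7% of all genes tested were called, 40.4% as higher and 42.3% as lower. HMMR had the largest difference of the 10, with a log2 fold change of 1.48 (SE 0.06, adjusted p = 9.54e-12), or a 2.78-fold higher level in SUM159PT. CLASP1 (0.65, SE 0.06) and MAP4 (0.41, SE 0.03) were the other two that were higher there. MAPRE1 (-0.74, SE 0.04) and STMN1 (-0.73, SE 0.04) were the lowest in SUM159PT relative to MDA-MB-231, followed by NUSAP1 (-0.58), MAP1B (-0.57), CKAP5 (-0.43), TPX2 (-0.41) and TACC3 (-0.32). Groups did not overlap for 9 members, 3 above and 6 below, where 77.6% of all genes did not (38.4% above, 39.2% below). MAP1B was the member whose groups overlapped, and without MDA-MB-231 sgNTS replicate 4 its value was -0.37. Each line is a table of its own, so line and any batch of its libraries cannot be told apart.

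Most of these transcripts were lower in sgYES1 than in sgNTS libraries, by modest amounts. In SUM159PT, 8 of 10 fell, MAPRE1 rose and TACC3 was not called, with a median log2 fold change of -0.22 over the members and -0.01 over all 14479 genes tested. In MDA-MB-231, 9 of 10 fell and MAP1B was not called, with a median of -0.35 over the members and 0.01 over all 15427 genes tested. Such calls were common in these data. Of all genes tested, 39.4% were called in SUM159PT (19.6% higher, 19.7% lower) and 42.8% in MDA-MB-231 (20.8% higher, 22.1% lower). The share called varied with level: among genes within 2-fold of a member's mean CPM, 38.0% (at the NUSAP1 level) to 60.9% (at the MAP4 level) were called in SUM159PT, and 43.2% (NUSAP1) to 60.0% (TPX2) in MDA-MB-231. With library totals as the only scaling, the calls over all genes in MDA-MB-231 were 3956 higher of 6617, against 3205 higher of 6607 with TMM, and the members' calls and directions were the same under both. In both lines 7 members fell, where 8.56% of the 13390 genes tested in both did so. Groups did not overlap for the 9 called members in SUM159PT (8 below and 1 above, where 35.3% of all genes did not overlap, 17.6% below), nor for the 9 called in MDA-MB-231 (all below, where 39.2% of all genes did not overlap, 20.4% below). In bulk RNA, fewer cells in a phase of the cycle and less RNA per cell cannot be told apart.

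**Figure D2:**
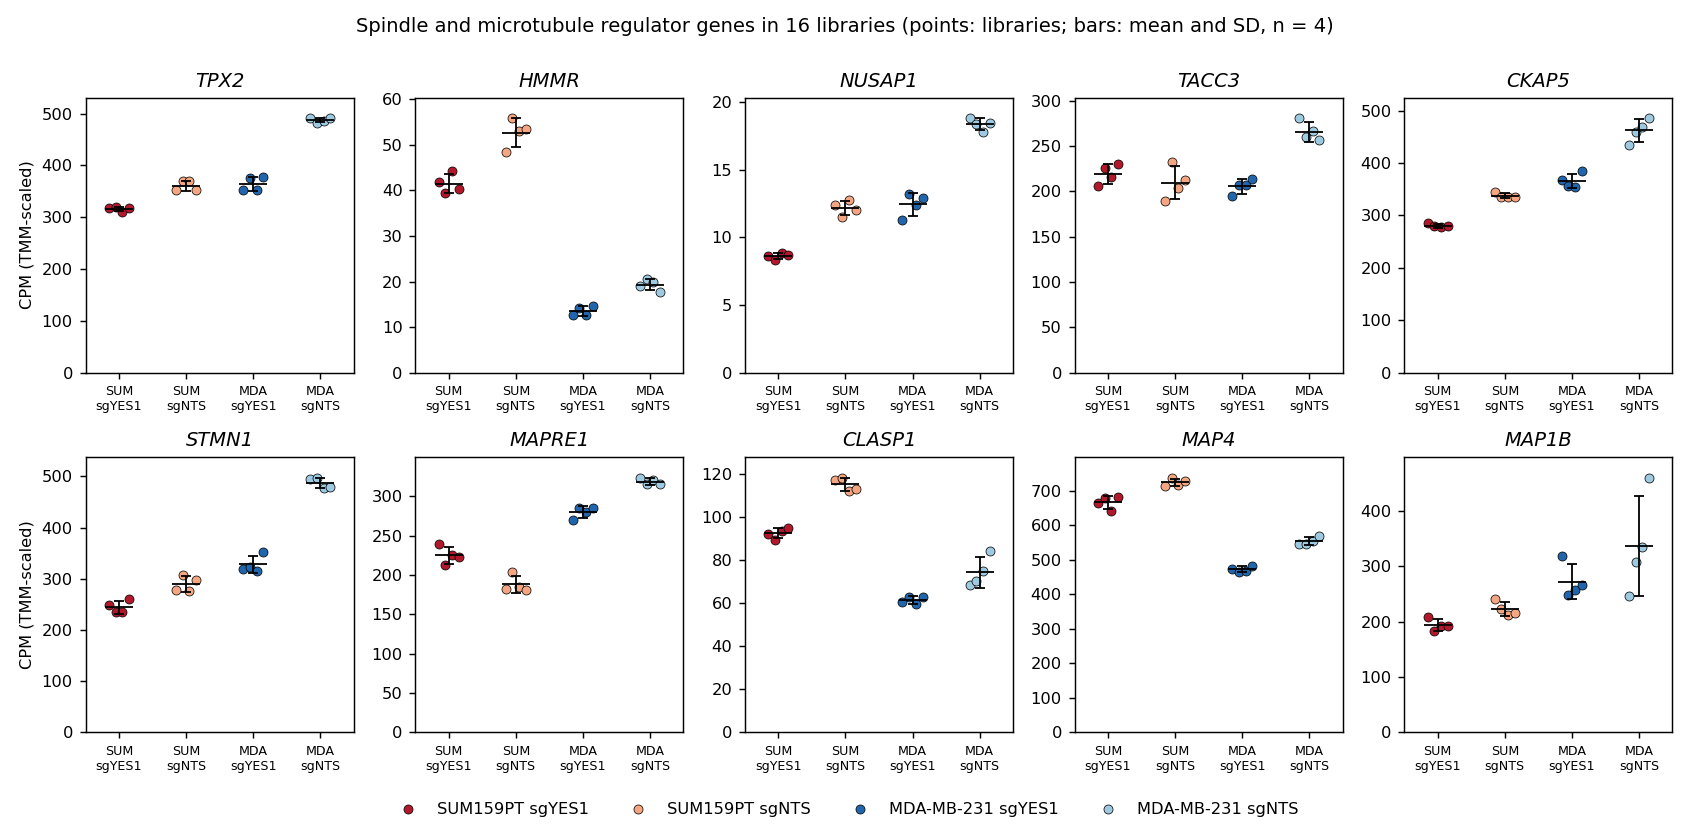
CPM of each gene (vertical axis, from 0) in every library of SUM159PT sgYES1, SUM159PT sgNTS, MDA-MB-231 sgYES1 and MDA-MB-231 sgNTS, left to right; points are libraries and bars are the mean and SD of 4. The sgYES1 points lie below the sgNTS points of the same line except for MAPRE1 and TACC3 in SUM159PT and MAP1B in MDA-MB-231.

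Among the spindle proteins, TPX2 was abundant and varied little between replicates. Its CPM was 318, 319, 310.3 and 318 in SUM159PT sgYES1 replicates 1 to 4, against 352, 369, 369.8 and 353 in sgNTS. The MDA-MB-231 libraries held 353, 375, 352 and 378 in sgYES1, against 491, 482, 486 and 491 in sgNTS. Every sgYES1 value lay under the lowest sgNTS value of its line. The log2 fold change was -0.19 (SE 0.04, adjusted p = 0.000317) in SUM159PT and -0.42 (SE 0.03, adjusted p = 3.36e-07) in MDA-MB-231. AURKA, the kinase that TPX2 activates, had 0.05 (SE 0.05, adjusted p = 0.462) in SUM159PT and fell in MDA-MB-231 (-0.35, SE 0.04, adjusted p = 9.41e-06).

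HMMR fell in both lines from very different control levels. It was at 41.9, 39.5, 44.3 and 40.3 CPM in SUM159PT sgYES1, against 48.4, 55.9, 53.1 and 53.4 CPM in sgNTS. HMMR in MDA-MB-231 was at 12.7, 14.2, 12.6 and 14.6 CPM in sgYES1, against 19.0, 20.5, 19.9 and 17.7 CPM in sgNTS. Every sgYES1 library was below every sgNTS library of its line. The log2 fold changes were -0.35 (SE 0.06, adjusted p = 8.25e-05) in SUM159PT and -0.50 (SE 0.08, adjusted p = 9.57e-05) in MDA-MB-231.

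NUSAP1 had the largest fall of the 10 genes in SUM159PT and the second largest, after STMN1, in MDA-MB-231. Its CPM was 8.64, 8.30, 8.87 and 8.67 in SUM159PT sgYES1, against 12.4, 11.5, 12.7 and 12.0 in sgNTS. The values in MDA-MB-231 were 11.3, 13.2, 12.4 and 12.9 in sgYES1, against 18.8, 18.4, 17.8 and 18.5 in sgNTS. Neither line showed any overlap of groups, although each library held at most 452 counts of this gene. The log2 fold change was -0.49 (SE 0.09, adjusted p = 0.000208) in SUM159PT and -0.56 (SE 0.07, adjusted p = 1.67e-05) in MDA-MB-231, so 71.1% and 67.8% of the sgNTS level remained.

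TACC3 and its partner CKAP5 parted in SUM159PT. TACC3 was at 205, 225, 216 and 230.3 CPM in SUM159PT sgYES1, against 189, 232, 204 and 212 CPM in sgNTS, groups that overlapped. The log2 fold change of 0.07 (SE 0.05, 95% interval -0.04 to 0.18, adjusted p = 0.346) was not called. Without sgNTS replicate 1 it was 0.018 (adjusted p = 0.821), and without sgNTS replicate 2 it was 0.12 (adjusted p = 0.0614). In MDA-MB-231 TACC3 was at 194, 207, 207 and 214 CPM in sgYES1, against 281, 259.9, 266 and 256 CPM in sgNTS, and fell (-0.37, SE 0.04, adjusted p = 4.79e-06). CKAP5, in contrast, fell in both lines. It was at 286, 279, 277 and 279.6 CPM in SUM159PT sgYES1, against 345, 335, 335 and 336 CPM in sgNTS (-0.27, SE 0.04, adjusted p = 5.42e-06). MDA-MB-231 libraries held 367, 356, 355 and 384 CPM in sgYES1, against 434, 459.8, 469 and 486 CPM in sgNTS (-0.34, SE 0.04, adjusted p = 1.15e-05). CLTC, the clathrin heavy chain of the same spindle complex, was not called in SUM159PT (0.06) or in MDA-MB-231 (-0.05). Of the TACC3 paralogs, TACC1 fell in both lines (-0.28 in SUM159PT, -0.42 in MDA-MB-231), and TACC2 was not called in SUM159PT (-0.13, adjusted p = 0.197) and fell in MDA-MB-231 (-0.13, adjusted p = 0.0273).

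STMN1 had the largest fall of the 10 genes in MDA-MB-231. Its CPM there was 319, 324, 316 and 353 in sgYES1, against 495, 498, 478 and 480.0 in sgNTS. In SUM159PT it was 248, 235, 235 and 261 in sgYES1, against 278, 308, 276 and 297 in sgNTS. Groups were apart in both lines, but by a wide margin only in MDA-MB-231. The log2 fold change was -0.24 (SE 0.05, adjusted p = 0.000208) in SUM159PT and -0.57 (SE 0.04, adjusted p = 6.26e-08) in MDA-MB-231, or 84.4% and 67.3% of the sgNTS level. The paralog STMN3 was at 10.1 ± 0.844 CPM in SUM159PT sgYES1 and 8.85 ± 0.948 CPM in sgNTS (log2 fold change 0.18, adjusted p = 0.181), and fell to 89.3 ± 6.00 CPM in MDA-MB-231 sgYES1, against 156 ± 5.76 CPM in sgNTS (-0.80, SE 0.05).

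MAPRE1 moved in opposite directions. Its CPM was 239, 212.5, 225 and 224 in SUM159PT sgYES1, against 182, 204, 185 and 181 in sgNTS, a rise of 0.26 on the log2 scale (SE 0.05, adjusted p = 0.000141). In MDA-MB-231 it was 269, 285, 280.1 and 286 in sgYES1, against 324, 315, 320.4 and 316 in sgNTS, a log2 fold change of -0.19 (SE 0.03, adjusted p = 0.000338). In both lines the groups were apart. A fall in MDA-MB-231 with a rise in SUM159PT was called for 2.48% of the genes tested in both lines. Without SUM159PT sgNTS replicate 2, the highest of its group, the rise was 0.30 (adjusted p = 9.13e-06). The paralog MAPRE2 was not called in SUM159PT (-0.03) and fell in MDA-MB-231 (-0.21, adjusted p = 0.00246), and MAPRE3 was called in neither line (0.11 in SUM159PT, 0.07 in MDA-MB-231).

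CLASP1 fell by similar amounts in both lines. It was at 92.0, 89.3, 93.6 and 94.8 CPM in SUM159PT sgYES1, against 117, 118, 112 and 113 CPM in sgNTS (-0.32, SE 0.04, adjusted p = 8.63e-06). CLASP1 in MDA-MB-231 was at 60.3, 62.7, 59.7 and 62.9 CPM in sgYES1, against 68.3, 70.0, 74.7 and 84.4 CPM in sgNTS (-0.28, SE 0.06, adjusted p = 0.00178). Replicate 4 of MDA-MB-231 sgNTS was the highest of these libraries, and without it the value was -0.21 with the call kept. CLASP2, which shares its role at microtubule ends, fell as well (-0.26 in SUM159PT, -0.28 in MDA-MB-231).

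MAP4 had the smallest called fall in SUM159PT. It was at 663, 678, 641 and 682 CPM in SUM159PT sgYES1, against 714, 738, 716 and 728 CPM in sgNTS (-0.12, SE 0.03, adjusted p = 0.00879). In MDA-MB-231 it was at 474, 465, 467 and 483 CPM in sgYES1, against 545, 546, 554 and 568 CPM in sgNTS (-0.23, SE 0.03, adjusted p = 3.88e-05). Small as they are, both differences separated the groups.

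MAP1B varied most between replicates of the 10 genes in MDA-MB-231. In SUM159PT it was at 208, 184, 192 and 191 CPM in sgYES1, against 242, 223, 213 and 216 CPM in sgNTS, and fell (-0.20, SE 0.05, adjusted p = 0.00155). With the spread estimated over all 16 libraries that call ended (adjusted p = 0.146). In MDA-MB-231 it was at 318, 248, 257 and 266 CPM in sgYES1, against 246, 308, 334 and 461 CPM in sgNTS, where the groups overlapped and the coefficient of variation in sgNTS was 26.8%. The value of -0.31 (SE 0.14, adjusted p = 0.0835) was not called, and without sgNTS replicate 4 it was -0.12 (adjusted p = 0.271). MAP1A, its paralog, was rare in both lines and rose in SUM159PT to 5.34 ± 0.726 CPM in sgYES1, against 2.31 ± 0.480 CPM in sgNTS (log2 fold change 1.18, SE 0.17, adjusted p = 1.32e-05), while its value in MDA-MB-231 was -0.12 (adjusted p = 0.67).

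The guide effect differed between lines for 4 of the 10 genes, where 24.5% of all 16640 genes tested were called in the interaction of line and guide. All 4 were shifted upward in SUM159PT relative to MDA-MB-231, a direction called for 12.7% of all genes. The same direction was called for 18 of 45 further spindle assembly genes, 23 of 28 G2 and M phase genes and 23 of 26 S phase genes. The log2 difference, SUM159PT minus MDA-MB-231, was 0.44 (SE 0.06, adjusted p = 6.36e-06) for MAPRE1 and 0.42 (SE 0.07, adjusted p = 0.000142) for TACC3. It was 0.32 (SE 0.06, adjusted p = 0.000742) for STMN1 and 0.22 (SE 0.05, adjusted p = 0.00181) for TPX2. For the other 6 a difference was not shown, and the 95% intervals bound its size. They ran from 0.00 to 0.20 for MAP4, from -0.05 to 0.17 for CKAP5, from -0.20 to 0.10 for CLASP1, from -0.05 to 0.34 for HMMR, from -0.16 to 0.28 for NUSAP1 and from -0.23 to 0.42 for MAP1B.

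**Figure D3:**
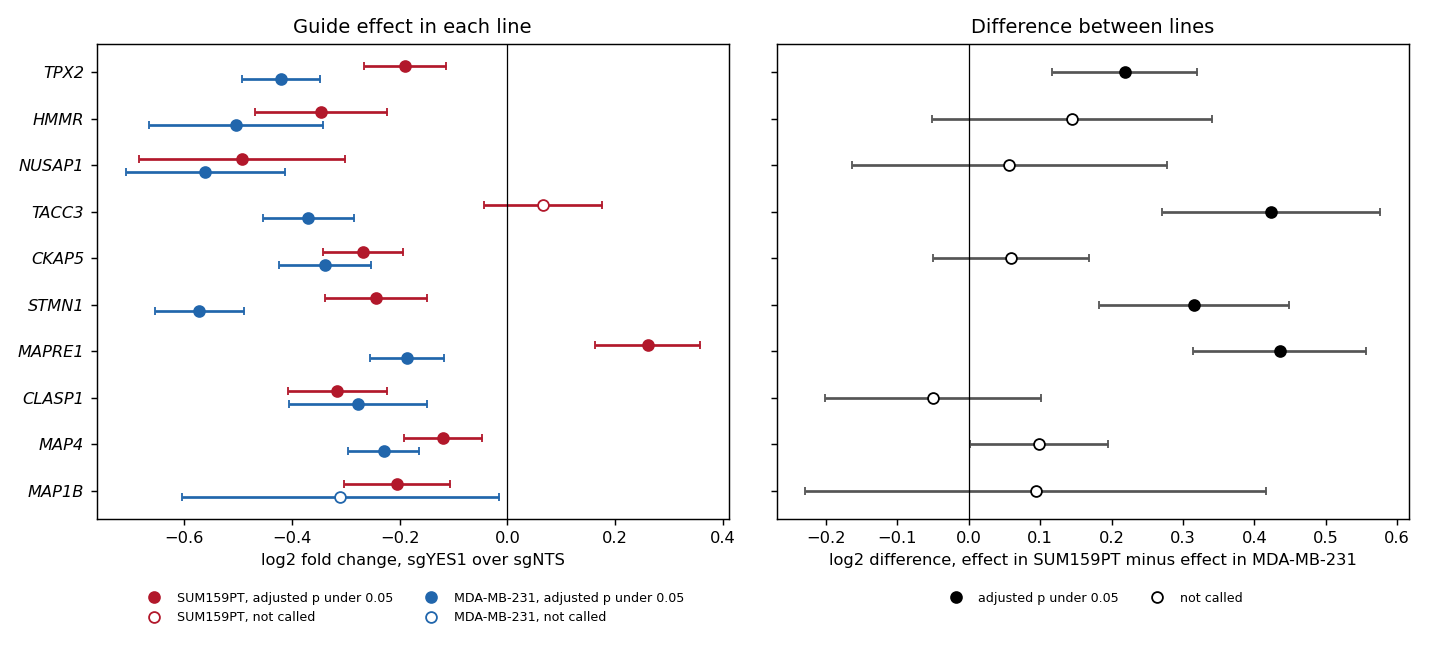
Left, log2 fold change of sgYES1 over sgNTS with its 95% interval for each gene in SUM159PT (red) and MDA-MB-231 (blue); right, the log2 difference of these effects, SUM159PT minus MDA-MB-231, with its 95% interval. Filled points have an adjusted p under 0.05, and the intervals of TPX2, TACC3, STMN1 and MAPRE1 in the right panel lie above 0.

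Ratios of members within a library need no scaling between libraries. The 4 ratios of counts per kb were compared in each line by two-sided exact permutation of log2 ratios, chosen with earlier results known, and p-values were adjusted over these 8 tests; 0.0286 is the smallest p that 4 against 4 libraries allow. MAPRE1 over TPX2 was higher with the YES1 guide in both lines, 0.978 ± 0.0503 in SUM159PT sgYES1 and 0.716 ± 0.0308 in sgNTS, and 1.06 ± 0.0245 in MDA-MB-231 sgYES1 and 0.899 ± 0.0107 in sgNTS (SD, n = 4; exact p = 0.0286 and adjusted p = 0.0457 in each line). STMN1 over MAP4 was lower in both, 0.876 ± 0.0372 in SUM159PT sgYES1 and 0.955 ± 0.0363 in sgNTS, and 1.66 ± 0.0626 in MDA-MB-231 sgYES1 and 2.10 ± 0.0786 in sgNTS, with the same exact permutation p-values. TACC3 over CKAP5 was 1.02 ± 0.0609 in SUM159PT sgYES1 and 0.812 ± 0.0778 in sgNTS, groups that were apart with the same exact permutation p. In MDA-MB-231 that ratio was 0.737 ± 0.0336 in sgYES1 and 0.754 ± 0.0657 in sgNTS, and the groups overlapped (exact permutation p = 0.743). TPX2 over HMMR overlapped in both lines (exact permutation p = 0.0571 in SUM159PT and 0.171 in MDA-MB-231). The pairs were chosen with results known, so these p-values describe separation and add no support to the results by gene. For MAPRE1 over TPX2 in SUM159PT the outcome was fixed, since the groups of both genes were already apart in opposite directions.

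**Figure D4:**
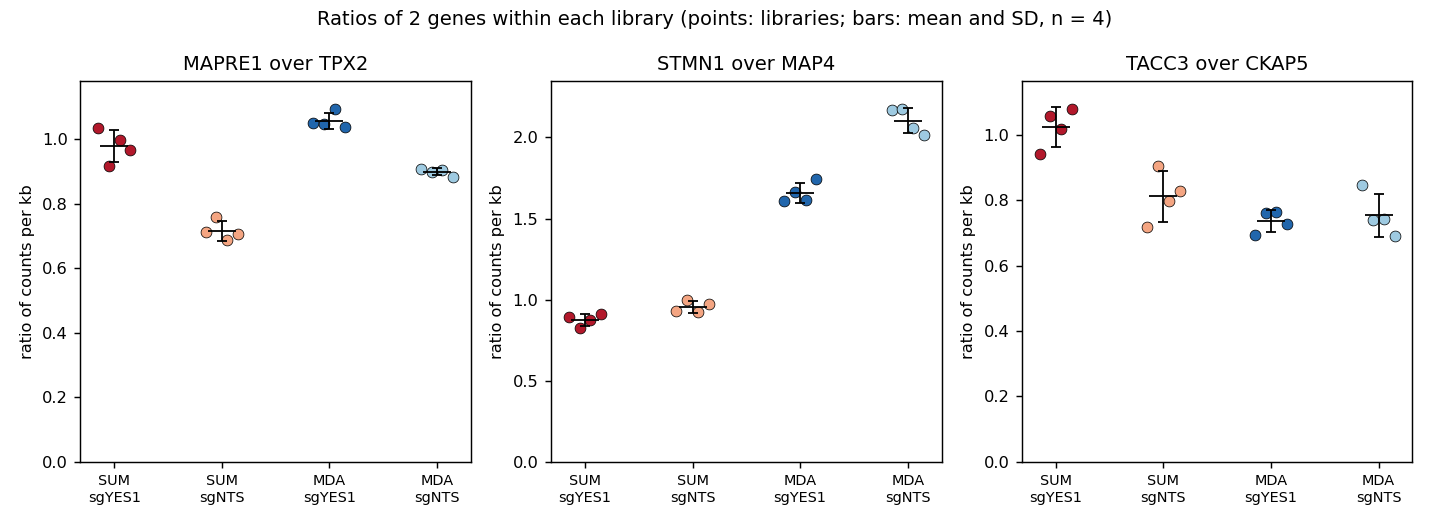
Ratio of counts per kb of 2 genes within each library (vertical axis, from 0), for SUM159PT sgYES1, SUM159PT sgNTS, MDA-MB-231 sgYES1 and MDA-MB-231 sgNTS; points are libraries and bars are the mean and SD of 4. MAPRE1 over TPX2 is higher in sgYES1 than in sgNTS in each line, and TACC3 over CKAP5 is separated between guides in SUM159PT and overlaps in MDA-MB-231.

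Other genes of the same processes were described by counts. Of 45 further spindle assembly genes, 12 fell and 5 rose in SUM159PT (median log2 fold change -0.06), no larger a share than the 39.4% of all genes called there. In MDA-MB-231, 32 fell and 2 rose (median -0.26), where 22.1% of all genes fell and 20.8% rose. The smallest p-values in SUM159PT were those of HAUS4, a subunit of augmin (-0.64), the kinesin gene KIF15 (-0.46), NEDD1, which anchors the gamma-tubulin ring complex (-0.48), and KIZ, a pole protein gene (-0.63). In MDA-MB-231 they were those of SPAG5, the pole protein astrin (-0.50), the kinesin genes KIF4A (-0.54) and KIF2C (-0.49), and FAM83D (-0.52). KIF2C, a depolymerase that MAPRE1 carries to growing ends, was not called in SUM159PT (-0.08, adjusted p = 0.227), and its effect differed between lines (log2 difference 0.39, adjusted p = 0.000142).

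Interphase microtubule genes were called about as often as all genes in both lines, but with more falls than rises. Of 51 tested in SUM159PT, 16 fell and 7 rose (median -0.04), or 31.4% and 13.7%, where 19.7% of all genes fell and 19.6% rose. Of 54 tested in MDA-MB-231, 19 fell and 6 rose (median -0.10), or 35.2% and 11.1%, where 22.1% of all genes fell and 20.8% rose. In either direction, 39.4% of all genes were called in SUM159PT and 42.8% in MDA-MB-231. Beside MAP1A, the smallest p-values in SUM159PT were those of CLIP4 (-0.48) and CLIP2 (-0.32), which are CAP-Gly proteins, and of TBCC, a tubulin folding cofactor, which rose (0.42). In MDA-MB-231 they were those of STMN3, MAP7D3, a MAP7 family gene (-0.55), GAS2L3, which links actin and microtubules (-0.64), and FIGNL1, a relative of the severing enzyme fidgetin (-0.41).

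Cell cycle markers fell beside the members in MDA-MB-231. In SUM159PT the called G2 and M phase genes mostly fell, while S phase genes were called in both directions. Of 28 G2 and M phase genes, 11 fell and 1 rose in SUM159PT (median -0.05), where 19.7% of all genes fell and 19.6% rose, and 28 fell in MDA-MB-231 (median -0.46), where 22.1% of all genes fell. Of 26 S phase genes, 5 fell and 9 rose in SUM159PT (median 0.03), and 26 fell in MDA-MB-231 (median -0.40). Examples in MDA-MB-231 are the mitotic kinase gene PLK1 (-0.71) and RRM2, a subunit of ribonucleotide reductase (-0.70). In SUM159PT, TOP2A, topoisomerase II alpha, fell (-0.30), and FEN1, the flap endonuclease of replication, rose (0.47). The share of cells in each phase was not measured, and its part in the members' results was not tested.

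**Figure D5:**
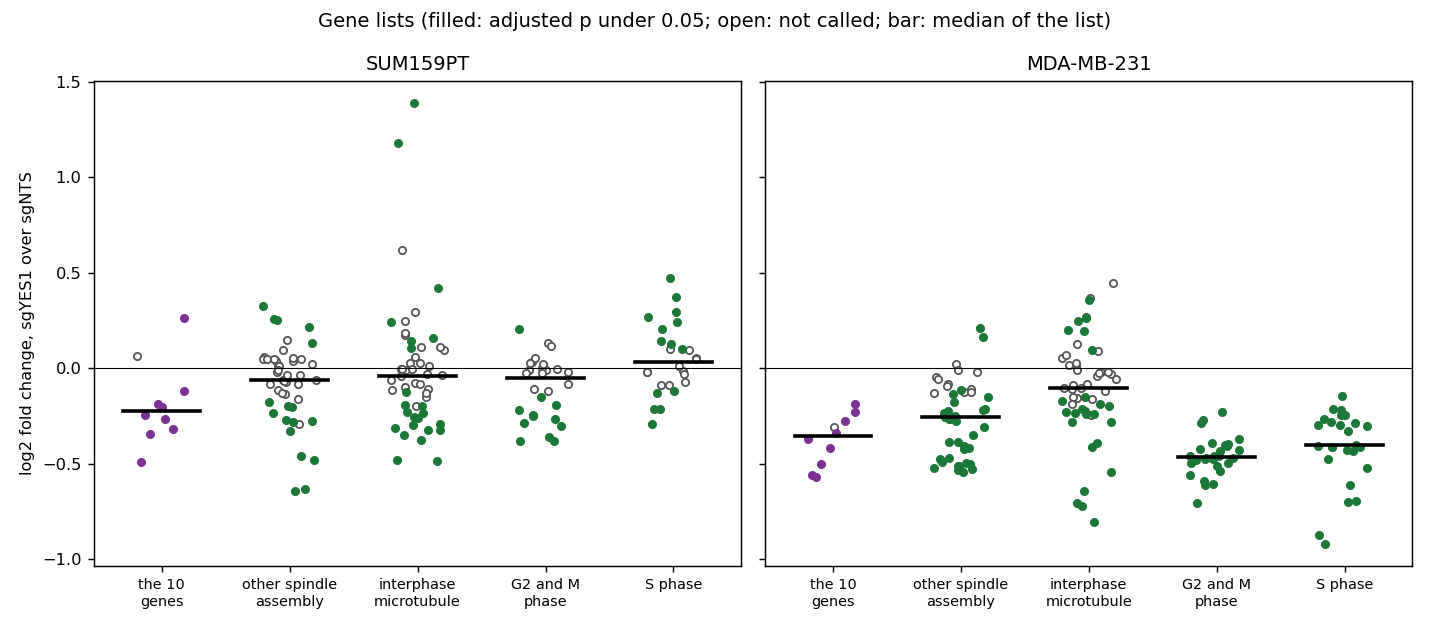
Log2 fold change of sgYES1 over sgNTS for the members and 4 other gene lists in SUM159PT (left) and MDA-MB-231 (right); points are genes, filled where the adjusted p is under 0.05, and bars are list medians. In MDA-MB-231 the medians of the members (-0.35), the G2 and M phase genes (-0.46) and the S phase genes (-0.40) are all below 0, while in SUM159PT the members' median is -0.22 and those lists are near 0.

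Across the 16 libraries, with log2 CPM centred within each line, most members varied together. Correlations are given as descriptions, since these libraries share the guide contrast. Pearson's r was 0.97 for STMN1 with TPX2, 0.97 for STMN1 with MAP4 and 0.95 for MAP4 with CKAP5. MAPRE1 had its highest r among the members with TACC3 (0.65), and r of -0.17 to CLASP1, -0.07 to NUSAP1, -0.04 to CKAP5 and -0.04 to MAP1B. Among 9515 protein-coding genes with at least 5 CPM in each line, the nearest to STMN1 were HMGN2 (r = 0.99), KIF4A and NUF2, and the nearest to TACC3 were UBE2C (r = 0.97), CDC20 and SDC1. TPX2 was closest to CAV1, ANXA2 and ARHGAP19, MAPRE1 to VAMP3, POP1 and FAM111B, and NUSAP1 to CTNNAL1, YES1 and NSD2.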

How the data were processed

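The authors deposited 1 table per line of raw counts per gene, whole numbers with no normalization. The submitters' processing notes name HISAT2 2.0.5, featureCounts 1.5.0-p3 and the build hg38, without settings for strand or for reads that match several genes. RNA was poly-A selected, per the labels' protocols. Columns were matched to samples by guide and replicate number. Every pair of libraries within a group had a chi-square of at least 2.33 per degree of freedom, above sampling noise, so none was merged.

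Counts were tested with edgeR 4.0.16 in R 4.3.3 (quasi-likelihood test, TMM scaling, filterByExpr with a smallest count of 10 and total of 15), two-sided, with Benjamini-Hochberg adjustment over all genes and calls under 0.05. Each line was fitted on its 8 libraries, the difference between lines on all 16, and the control lines on the 8 sgNTS libraries. SE is the log2 fold change over the root of F. The code was tested on simulated counts. Exon lengths are the deposited ones; exons were read from GENCODE 29, whose spans equal those of the tables for all 10 members.

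Members and lists were chosen with earlier results of these data known. Besides the members, YES1, the cell type markers and 1 gene that overlaps NUSAP1, genes named are 10 fixed partners and paralogs, up to 4 of each list with the smallest p in each line, and the 3 nearest by correlation. Alternatives were other scaling, no filter, DESeq2 1.42.0, a replicate block, a joint fit and leaving out each library. Same-numbered libraries deviated together weakly or not at all (r -0.42 to 0.17), so numbers were not taken as pairs. The same number was still the best match for replicates 1, 3 and 4 of SUM159PT and replicate 2 of MDA-MB-231.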

Additional observations from a re-analysis of the deposited data

Results flagged for a closer look

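Of 40 sets of 4 libraries (10 genes in 4 groups), 3 had a library far from the other three of its group by Dixon's criterion, and chance alone marks about 1 set in 20. CKAP5 was at 345 CPM in SUM159PT sgNTS replicate 1, against 335 to 336 CPM in the other three. MAPRE1 was at 204 CPM in SUM159PT sgNTS replicate 2, against 181 to 185 CPM in the other three. TPX2 was at 310.3 CPM in SUM159PT sgYES1 replicate 3, against 318 to 319 CPM in the other three.

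The guide effect differed between lines, by the interaction test of edgeR over all genes, for 4 members. The log2 difference, SUM159PT minus MDA-MB-231, was 0.44 for MAPRE1, 0.42 for TACC3, 0.32 for STMN1 and 0.22 for TPX2, and each was called without any 1 of the 16 libraries.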

How the results depend on the processing

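The counts of members called stayed within 1.5 times of those reported under all alternatives run, and no called member changed direction. Leaving out 1 library gave 9 to 10 members called in MDA-MB-231, 9 in SUM159PT, 4 to 5 for the difference between lines and 10 between control lines. Calls that changed were those of MAP1B and MAP4. MAP1B in MDA-MB-231 was called with no filter (-0.34), in the joint fit (-0.31, adjusted p = 0.0288) and without sgNTS replicate 1 (-0.44) or sgYES1 replicate 1 (-0.40), and in SUM159PT lost its call in the joint fit; the cause was not tested. The difference for MAP4 was called by DESeq2 (0.12, adjusted p = 0.024) and without 5 single libraries. Differences between lines that were not called changed sign without 1 library, ranging from -0.063 to 0.23 for MAP1B and from -0.086 to 0.014 for CLASP1. With the replicate block, 9, 9 and 4 members were called in MDA-MB-231, SUM159PT and the difference between lines, as without it. Counts of at most 452 limit NUSAP1.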
